A study of Mus musculus with 18 samples.

Results

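Glutamate, GABA and glycine act on neurons through receptors that are assembled from subunits, each encoded by its own gene. The levels of these genes were examined in electroporated mouse retina. The genes were chosen by symbol and by the protein-coding class of the deposited tables. There were 52 of them, out of 34385 genes in the knockdown table and 34396 in the overexpression table. They comprised 4 AMPA, 5 kainate, 3 delta, 7 NMDA and 7 metabotropic glutamate receptor genes, 6 alpha, 3 beta, 3 gamma, 3 rho and 4 other GABA-A receptor genes, 2 GABA-B receptor genes and 5 glycine receptor genes. One of the 52, Grid2ip, encodes delphilin, a scaffold that binds a delta receptor and is not itself a receptor subunit, so that 51 were receptor subunits.

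AMPA, kainate and NMDA receptors are cation channels that glutamate opens, whereas metabotropic glutamate receptors act through G proteins. GABA-A and glycine receptors are chloride channels, and the GABA-B receptor is a G-protein-coupled dimer. In the retina, photoreceptors and bipolar cells release glutamate, and horizontal and amacrine cells release GABA or glycine, so that which subunits a cell makes sets what it can respond to.

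All samples were retinas of ICR mice, an outbred stock, electroporated at postnatal day 0.5 with an EGFP plasmid and a test plasmid, then kept as explants for 3 days, after which EGFP-positive cells were sorted. The test plasmid was directed against Nmnat1 (Nmnat1 knockdown) or Nmnat2 (Nmnat2 knockdown), expressed Nmnat1 or Nmnat2 (Nmnat1 and Nmnat2 overexpression), or was the control, which was a scramble plasmid in the knockdown table and an empty vector in the overexpression table. Nmnat1 and Nmnat2 encode enzymes that make NAD. Each of the 6 groups held 3 libraries. The promoters that drove the plasmids are not stated in the labels. The labels also do not say whether the libraries of a group came from different retinas, so each p-value rests on a spread between libraries that may be technical only.

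Levels are given as parts per 1000000 (ppm) of a library's column sum, and errors of levels as SD (n = 3). Log2 fold changes are on the log2(level + 1 ppm) scale, with their SE, from limma, a linear model fitted to all genes of a table, and p was adjusted by the method of Benjamini and Hochberg over all genes tested. A gene with an adjusted p under 0.05 is said to have passed the test. The reads behind 1 ppm were estimated for a transcript 1 kb longer than the fitted fragment length (230 to 290 bases). For such a transcript, 1 ppm stood for 12.5 to 20.6 reads in the knockdown libraries and 11.4 to 16.7 in the overexpression libraries. A shorter transcript had fewer reads per ppm. Both tables were scaled separately, so that levels of the scramble and empty vector libraries are not compared by a test.

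Knockdown library N2_2 (Nmnat2 knockdown) stood apart from the other 8 libraries of its table, at 129 against -31.2 to -5.83 on the first principal component. Mitochondrial genes held 6.51% of its column sum and 4.67% of that of scramble library C1, against 2.29% to 2.85% in the other 7, and their part in the results was not tested. In the overexpression table the libraries numbered 1 of all groups (N1_1, N2_1 and v1) lay on one side, at 33.9, 91.4 and 24.5 against -50.0 to -4.14. Counts of genes past the test are therefore given with all libraries and again without N2_2 or without the libraries numbered 1. Nmnat1 was at 7.37 to 8.54 ppm in Nmnat1 knockdown, against 16.96 to 20.9 ppm in scramble libraries, and at 14797 to 27832 ppm in Nmnat1 overexpression, against 18.7 to 22.6 ppm with the empty vector. Nmnat2 was at 20911 to 22818 ppm in Nmnat2 overexpression, against 1.14 to 2.71 ppm with the empty vector. Nmnat2 levels overlapped between Nmnat2 knockdown (0.503 to 1.27 ppm) and scramble (0.624 to 6.22 ppm), so that this gene does not check the label of the Nmnat2 knockdown libraries.

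In the 6 control libraries the receptor genes spanned a wide range of levels. The most abundant was Gabbr1, the GABA-binding subunit of the GABA-B receptor, with a mean level of 30.4 ppm. Among the other abundant genes were the kainate receptor genes Grik5 (19.5 ppm) and Grik3 (19.4 ppm) and the AMPA receptor gene Gria4 (19.3 ppm). These means pool control groups of separate tables, in which Gria4 was at 23.9 to 27.5 ppm (scramble) and 12.3 to 14.4 ppm (empty vector) and Grik3 at 8.59 to 14.9 and 21.5 to 29.1 ppm. Grik2, Gabra2, Gabbr2 and Glrb averaged 14.1, 12.6, 11.9 and 11.5 ppm. Most neighbours in the order of levels had overlapping ranges over libraries. At the low end were Gabrd (0.139 ppm), Grin2c (0.170 ppm), Grin2d (0.210 ppm) and Glra4 (0.228 ppm). A gene was tested if 3 or more of a table's 9 libraries reached 1 ppm, which left 42 receptor genes in the knockdown table and 37 in the overexpression table. The 10 untested in both tables were Gabrd, Gabrr1, Grin2a, Grin2c, Grin2d, Grid2ip, Glra1, Glra3, Glra4 and Grm3, and in the overexpression table Gabra6, Gabrb1, Gabrp, Gabrq and Grin3b were untested as well. A gene that passed this filter only through the group in which it was high had to differ, so no summary over the tested genes is offered as support for a difference.

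**Figure D1:**
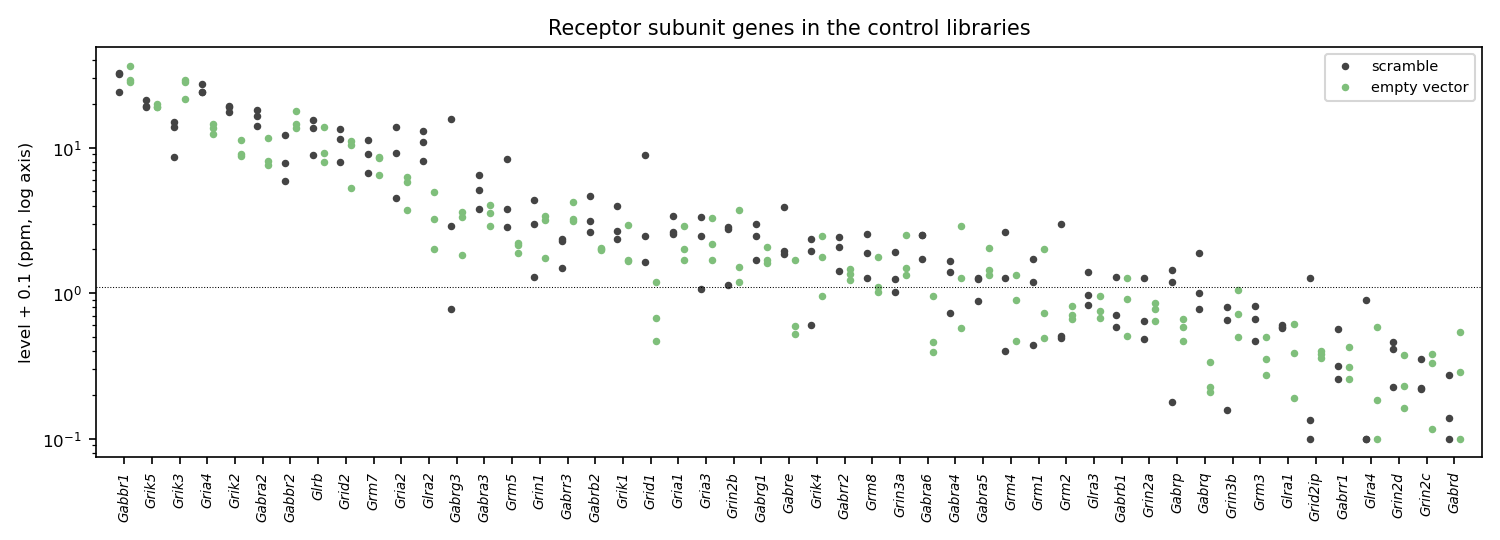
Level of 49 of the 52 genes in the 3 scramble and 3 empty vector libraries (1 point per library, level + 0.1 ppm on a log axis), ordered by the mean over the 6 libraries. Gabbr1, at a mean of 30.4 ppm, and Gabrd, at 0.139 ppm, are the ends of the order, and the dotted line marks a level of 1 ppm.

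Many GABA-A receptor genes lie in clusters, and levels can differ widely within one. On chromosome 5 of GRCm38, Gabra2 (70957597 to 71095849, minus strand) averaged 12.6 ppm in the control libraries, whereas Gabrg1 averaged 1.98, Gabra4 1.32 and Gabrb1 0.778 ppm. On chromosome 11, Gabrb2 and Gabra6 averaged 2.64 and 1.33 ppm, and on chromosome 7, Gabrg3 and Gabra5 averaged 4.63 and 1.27 ppm. The Gabrg3 mean rested largely on scramble library C2, with 0.682, 15.8 and 2.81 ppm in C1, C2 and C3. Its range overlapped that of Gabra5 in both control groups (Gabra5 at 0.776 to 1.17 ppm in scramble), so this pair shows no clear difference.

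The results below turn on 5 genes that were among the 4 with the smallest p in at least 1 of the overexpression comparisons. These were the AMPA receptor genes Gria4 (chromosome 9, 4417896 to 4796234, minus strand) and Gria2 (chromosome 3, 80681450 to 80802835, minus strand), the GABA-A receptor gene Gabra2, the kainate receptor gene Grik2 (chromosome 10, 49094833 to 49788766, minus strand) and the glycine receptor gene Glra2 (chromosome X, 165129017 to 165327393, minus strand). The 250 bases before the RefSeq start of 4 of them are shown on GRCm38.p6, read 5′ to 3′ on the gene's own strand. The window of Grik2 begins inside an annotated exon and is not shown. Capitals mark E-boxes, the CANNTG sites that basic helix-loop-helix factors can bind, which read alike on both strands. The windows are chr9:4796235-4796484 for Gria4, chr3:80802836-80803085 for Gria2, chr5:71095850-71096099 for Gabra2 and chrX:165327394-165327643 for Glra2.
Gria4: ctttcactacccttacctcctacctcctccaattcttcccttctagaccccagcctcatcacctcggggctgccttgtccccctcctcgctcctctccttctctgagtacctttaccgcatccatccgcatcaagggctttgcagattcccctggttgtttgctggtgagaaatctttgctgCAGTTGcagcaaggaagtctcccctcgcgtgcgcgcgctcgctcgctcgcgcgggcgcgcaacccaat
Gria2: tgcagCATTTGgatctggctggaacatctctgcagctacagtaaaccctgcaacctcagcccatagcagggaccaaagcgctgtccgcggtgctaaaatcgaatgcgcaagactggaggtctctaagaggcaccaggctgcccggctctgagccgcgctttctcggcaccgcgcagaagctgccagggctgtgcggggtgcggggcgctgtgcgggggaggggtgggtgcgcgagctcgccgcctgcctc
Gabra2: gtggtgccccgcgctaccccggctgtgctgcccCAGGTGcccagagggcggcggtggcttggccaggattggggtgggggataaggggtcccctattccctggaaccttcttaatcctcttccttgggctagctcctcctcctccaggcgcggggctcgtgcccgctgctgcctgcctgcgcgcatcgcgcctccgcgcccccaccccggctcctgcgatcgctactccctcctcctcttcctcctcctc
Glra2: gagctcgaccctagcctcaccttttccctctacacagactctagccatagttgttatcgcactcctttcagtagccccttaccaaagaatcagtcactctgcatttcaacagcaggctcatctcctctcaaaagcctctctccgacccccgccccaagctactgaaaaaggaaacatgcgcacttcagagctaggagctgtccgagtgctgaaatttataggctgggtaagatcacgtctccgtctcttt

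The windows of Gria4, Gria2 and Gabra2 each hold 1 E-box and that of Glra2 none, while 66.0% of the windows of 27025 RefSeq genes hold at least 1. A GC box (GGGCGG or CCGCCC) is in the windows of Gabra2 and Glra2 and in 32.9% of all windows, and a TATA box (TATAAA or TTTATA) is in that of Glra2 and in 13.0%. None of the 4 holds a cAMP response element (TGACGTCA), which 1.62% of all windows hold, and no 2 of these motifs overlap in the 4 windows. The windows of Gria4, Gria2 and Gabra2 are rich in CpG, with 16, 19 and 18, against a median of 6 over all windows. That of Glra2 holds 8, close to the median. A match of letters is a description only and says nothing about binding.

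Overexpression of Nmnat1 or Nmnat2 was compared with the empty vector to ask how more of either enzyme changes the transcripts of these cells. In both, every overexpression library lay above every empty vector library for Gria4, Gria2, Gabra2, Grik2 and Glra2. These genes were chosen by a small p in these comparisons, so their lack of overlap is no further support. A common direction is none either, because both comparisons share the empty vector libraries. With Nmnat1, 1 receptor gene passed the test (Gria4, higher) of 37 tested, where 0.121% of all 20725 genes passed. With Nmnat2, 3 passed (Gria4, Gabra2 and Grik2, all higher), where 0.550% of all genes passed. Without the libraries numbered 1, 6 receptor genes passed with Nmnat1 (among them Gria4, Gabra2, Gria2, Gria1 and Glra2) and 6 with Nmnat2 (among them Gria4, Gabra2, Glra2, Gria2 and Grik2), all higher, where 8.48% and 6.31% of all genes passed. The fits reported here leave out the replicate number. With it as a block and all libraries, Gria2 and Gabra2 also passed with Nmnat1, and Gria2 and Glra2 with Nmnat2, where more of all genes passed as well.

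Gria4, whose subunit forms rapidly gated AMPA receptors, was at 30.7, 40.3 and 42.3 ppm in Nmnat1 overexpression and at 33.3, 38.6 and 34.0 ppm in Nmnat2 overexpression, against 12.3, 13.5 and 14.4 ppm with the empty vector. Every overexpression library was above every control library. Gria4 rose by a log2 fold change of 1.41 ± 0.15 with Nmnat1 (limma, adjusted p = 0.0129) and of 1.33 ± 0.15 with Nmnat2 (adjusted p = 0.0145). The mean level was 2.81-fold higher with Nmnat1 and 2.63-fold higher with Nmnat2. The call with Nmnat1 was lost when library v2, v3, N1_2 or N1_3 was left out (adjusted p = 0.0904, 0.0639, 0.1096 and 0.114). That with Nmnat2 was lost without v1, v2, v3, N2_2 or N2_3 (adjusted p = 0.0541, 0.116, 0.0847, 0.0844 and 0.0615), and the log2 fold change stayed at 1.27 or more in each of these fits.

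Gria2 encodes the subunit that keeps AMPA receptors from passing calcium. It was at 10.6, 14.3 and 14.4 ppm in Nmnat1 overexpression and at 11.4, 11.5 and 11.0 ppm in Nmnat2 overexpression, against 3.62, 5.67 and 6.14 ppm with the empty vector. The groups did not overlap, but Gria2 did not pass the test with all libraries (log2 fold change 1.21 ± 0.23 with Nmnat1, limma adjusted p = 0.0843, and 1.03 ± 0.23 with Nmnat2, adjusted p = 0.0898). Without the libraries numbered 1 it passed in both (adjusted p = 0.00697 and 0.0293), and with Nmnat1 also without N1_1 or N2_1 alone (adjusted p = 0.0326 and 0.0419). Gria1 was at 3.33 to 6.76 ppm with Nmnat1 and 2.31 to 4.51 ppm with Nmnat2, against 1.59 to 2.79 ppm with the empty vector. It overlapped the control with Nmnat2, and Gria3, the remaining member, overlapped it in both.

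Summed over the 4 AMPA receptor genes, the level was 58.9 ± 10.4 ppm in Nmnat1 overexpression and 53.8 ± 3.64 ppm in Nmnat2 overexpression, against 23.0 ± 2.27 ppm with the empty vector (SD, n = 3 each). Gria4 supplied 64.3% ± 1.15 of it with Nmnat1 and 65.5% ± 0.927 with Nmnat2, against 58.6% ± 2.13 with the empty vector, and Gria2 supplied 22.3% ± 0.470 and 21.0% ± 1.21, against 22.2% ± 3.86.

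Gabra2, the alpha subunit found in many synaptic GABA-A receptors of the developing brain, was at 15.0, 27.2 and 28.2 ppm in Nmnat1 overexpression and at 21.2, 29.6 and 30.2 ppm in Nmnat2 overexpression, against 7.55, 11.5 and 8.03 ppm with the empty vector. The libraries numbered 1 were the lowest of their groups, and neither group overlapped the control. Gabra2 rose with Nmnat2 (log2 fold change 1.48 ± 0.26, limma adjusted p = 0.0464), with a 2.99-fold higher mean. With Nmnat1 its log2 fold change was 1.25 ± 0.26 and did not pass the test (adjusted p = 0.112). Leaving out the libraries numbered 1 brought it past the threshold (1.43 ± 0.17, adjusted p = 0.00342), as did leaving out N1_1 or N2_1 alone (adjusted p = 0.0162 and 0.0495). The Nmnat2 call was lost in 7 of 9 fits that left out 1 library, with an adjusted p of 0.0722 to 0.204 without N1_2, N1_3, N2_2, N2_3, v1, v2 or v3, while the log2 fold change stayed between 1.38 and 1.66.

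Gabra3, another alpha subunit, did not pass the test, with log2 fold changes of 0.29 ± 0.25 with Nmnat1 and 0.24 ± 0.25 with Nmnat2 (limma).

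Glra2, the glycine receptor alpha subunit that prevails in immature neurons, was at 8.51, 9.17 and 7.70 ppm in Nmnat1 overexpression and at 12.4, 8.86 and 7.55 ppm in Nmnat2 overexpression, against 4.84, 1.92 and 3.14 ppm with the empty vector. The groups did not overlap. Its log2 fold change was 1.19 ± 0.29 with Nmnat1 (limma adjusted p = 0.164) and 1.33 ± 0.29 with Nmnat2 (adjusted p = 0.0898), and leaving out the libraries numbered 1 brought it past the test (adjusted p = 0.0163 and 0.0209). Glrb, the beta subunit that ties glycine receptors to the scaffold gephyrin, did not pass in either (-0.12 ± 0.29 and 0.31 ± 0.29).

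Among kainate receptor genes, Grik2, a pore-forming subunit, was at 20.8, 17.2 and 15.9 ppm in Nmnat1 overexpression and at 23.2, 17.04 and 21.2 ppm in Nmnat2 overexpression, against 8.90, 11.3 and 8.68 ppm with the empty vector. It rose with Nmnat2 (log2 fold change 1.01 ± 0.19, limma adjusted p = 0.0498), close to the threshold, and was 0.84 ± 0.19 higher with Nmnat1 without passing (adjusted p = 0.124). The Nmnat2 call held in 1 of 9 fits that left out 1 library, that without N1_1, and in the other 8 the adjusted p was 0.0524 to 0.227. It was also lost with a pseudocount of 5 ppm, with no filter, with median-of-ratios scaling, with quantile normalization and in a fit of only both groups compared. Grik2 supplied 28.0% ± 1.17 of the summed kainate receptor level with Nmnat1 and 29.3% ± 4.93 with Nmnat2, against 16.3% ± 1.92 with the empty vector. Grik3 was at 20.3, 19.6 and 20.9 ppm with Nmnat1 and at 23.3, 30.5 and 26.3 ppm with Nmnat2, against 21.5, 29.1 and 28.3 ppm. Its log2 fold change was -0.35 ± 0.16 with Nmnat1 (adjusted p = 0.531), with groups that did not overlap, and 0.03 ± 0.16 with Nmnat2.

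Neither GABA-B receptor gene passed the test with overexpression. Gabbr1 differed by 0.10 ± 0.17 with Nmnat1 and 0.30 ± 0.17 with Nmnat2, and Gabbr2, the subunit that couples to the G protein, by 0.03 ± 0.17 and -0.02 ± 0.17 (log2 fold changes). No NMDA or metabotropic glutamate receptor gene passed, with all libraries or without those numbered 1. Over the 37 tested genes, 11 with Nmnat1 had 3 libraries all above the controls and 2 all below, where 7.74% and 10.1% of all genes did. With Nmnat2 the counts were 10 above and 0 below, where 8.60% and 7.73% of all genes did. Without the libraries numbered 1 the counts were 17 and 8 with Nmnat1 (23.7% and 30.6% of all genes) and 16 and 2 with Nmnat2 (26.8% and 21.4%). The median log2 fold change of the tested receptor genes was 0.13 with Nmnat1, against -0.04 for all genes, and 0.31 with Nmnat2, against 0.06 for all genes. Both overexpression comparisons share the empty vector libraries.

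**Figure D2:**
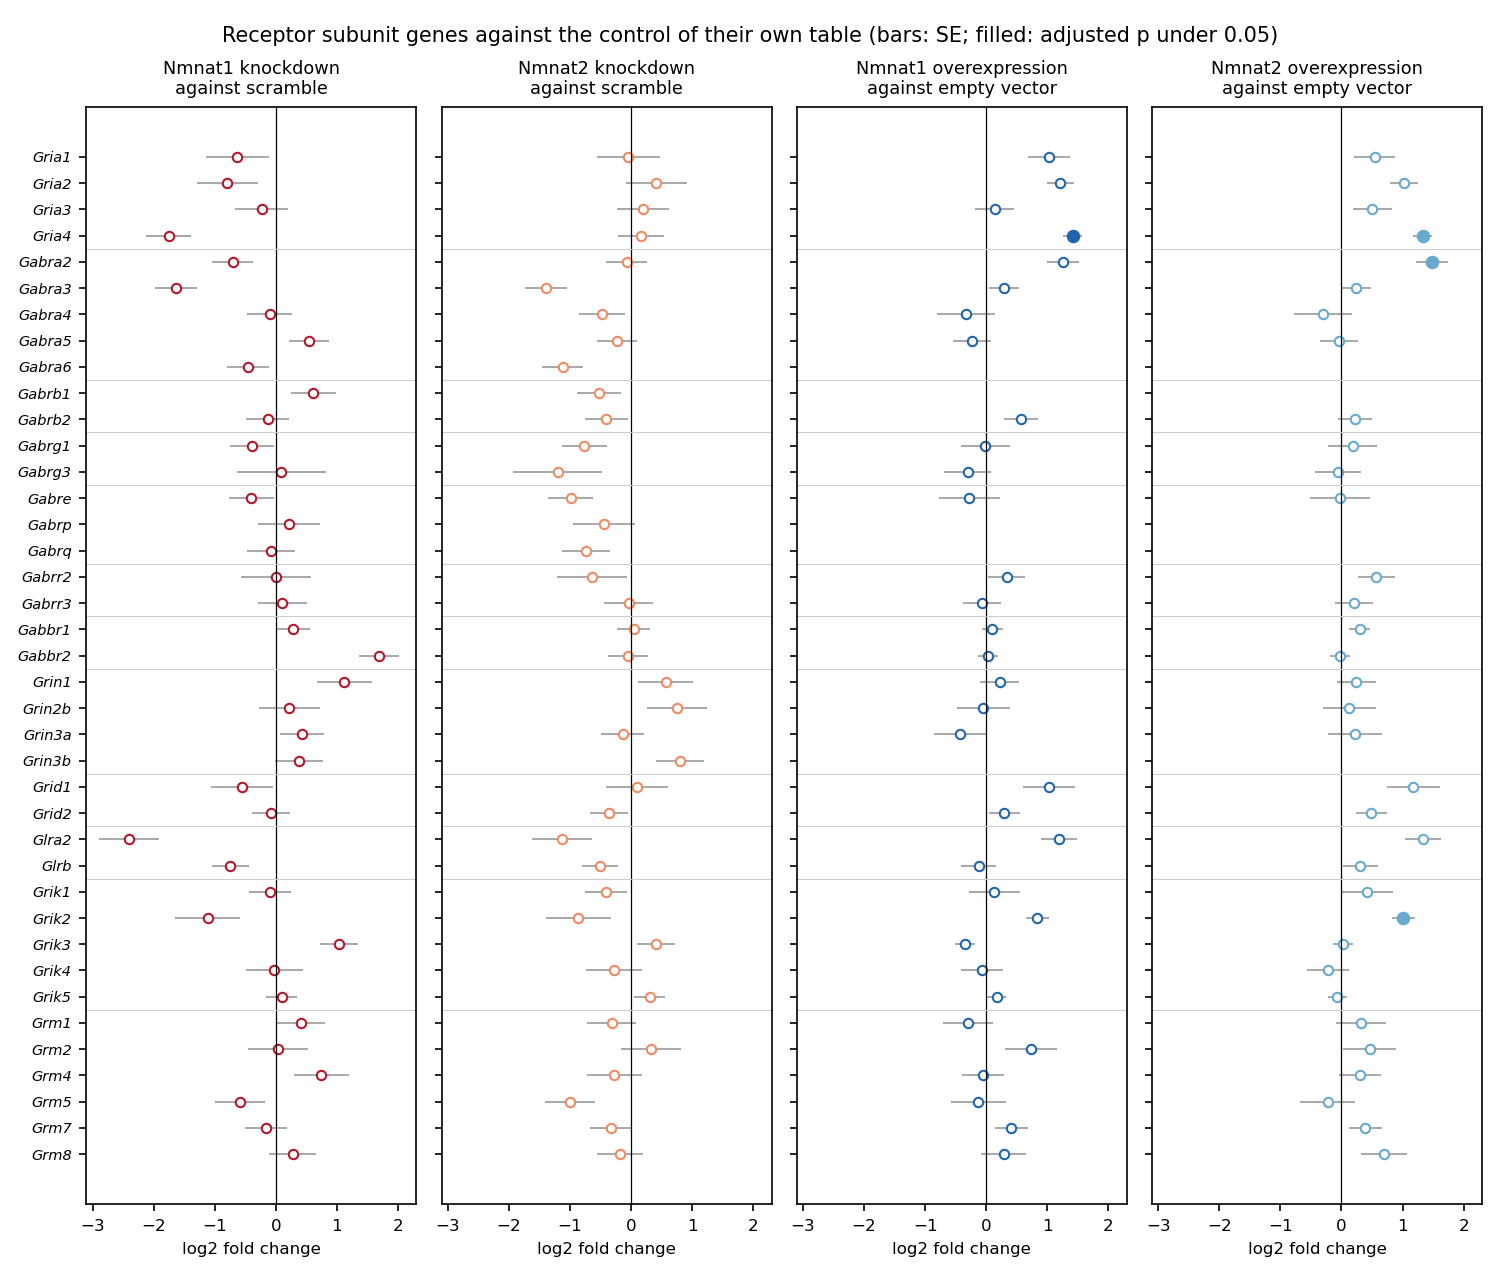
Log2 fold change with its SE of 39 of the tested receptor genes in the 4 comparisons (panels), ordered by family, with filled points for an adjusted p under 0.05. The filled points are Gria4 with Nmnat1 overexpression and Gria4, Gabra2 and Grik2 with Nmnat2 overexpression, and both knockdown panels hold none.

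Knockdown of Nmnat1 was compared with scramble to ask what less of the enzyme does to the same transcripts. No receptor gene passed the test with all 9 libraries, against 0.144% of all 22233 genes, and 9 of the 42 tested had an unadjusted p under 0.05, where 10.5% of all genes did. Without library N2_2, which belongs to neither group but enters the shared estimate of the spread, 8 passed, against 8.11% of all genes. Of these, 2 were higher (Gabbr2 and Grik3) and 6 lower (among them Gria4, Glra2, Grik2, Gabra3 and Gabra2). Groups that did not overlap were found for 5 higher and 10 lower receptor genes, where 12.8% and 12.0% of all genes did.

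Gria4 was at 7.32, 5.45 and 7.61 ppm in Nmnat1 knockdown, against 24.0, 27.5 and 23.9 ppm in scramble libraries, a 3.70-fold lower mean. No library of one group came near the other. The log2 fold change was -1.75 ± 0.37 (limma adjusted p = 0.128), and -1.75 ± 0.18 without N2_2 (adjusted p = 4.87e-04). The summed level of the 4 AMPA receptor genes was 14.3 ± 1.23 ppm in Nmnat1 knockdown, against 39.2 ± 4.58 ppm in scramble (SD, n = 3 each). Gria4 supplied 47.5% ± 6.45 of it in the knockdown, against 65.0% ± 11.9 in scramble. Gria2 was at 4.79, 4.26 and 4.16 ppm in the knockdown, against a wide 13.8, 4.44 and 9.15 ppm in scramble, and overlapped (-0.79 ± 0.50, adjusted p = 0.620).

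Glra2 was at 0.274, 1.84 and 1.77 ppm in Nmnat1 knockdown, against 12.9, 10.8 and 7.96 ppm in scramble libraries, an 8.16-fold lower mean and the largest fitted decrease among the receptor genes in this comparison. Its log2 fold change was -2.40 ± 0.49 (limma adjusted p = 0.124), or -2.40 ± 0.38 without N2_2 (adjusted p = 0.00513). Glrb was at 5.93, 7.65 and 7.48 ppm, against 15.5, 8.85 and 13.6 ppm, without overlap, and did not pass in either fit (-0.74 ± 0.30, adjusted p = 0.418 and, without N2_2, 0.117).

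In the kainate family a pair of genes differed in opposite directions. Grik2 was at 8.77, 8.54 and 6.85 ppm in Nmnat1 knockdown, against 19.1, 17.4 and 19.1 ppm in scramble, and Grik3 was at 26.8, 27.2 and 24.0 ppm, against 14.9, 8.59 and 13.8 ppm. Neither gene's groups overlapped. The log2 fold changes were -1.12 ± 0.53 for Grik2 (limma adjusted p = 0.502, or 0.00660 without N2_2) and 1.04 ± 0.31 for Grik3 (adjusted p = 0.279, or 0.0162 without N2_2). As a share of the summed kainate receptor level, Grik2 made up 13.5% ± 1.26 in the knockdown, against 33.6% ± 0.997 in scramble, and Grik3 43.8% ± 2.81, against 22.4% ± 5.35. The sum itself was 59.7 ± 6.98 ppm in the knockdown, against 55.1 ± 2.44 ppm in scramble. Grik5, a subunit that needs a partner to form a channel, supplied 35.8% ± 5.81, against 35.9% ± 3.63.

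Gabbr2 was at 22.9, 33.0 and 30.9 ppm in Nmnat1 knockdown, against 5.79, 12.1 and 7.77 ppm in scramble libraries, a 3.39-fold higher mean with no overlap. Its log2 fold change was 1.69 ± 0.33 (limma adjusted p = 0.107, or 0.00481 without N2_2). Its partner Gabbr1 was at 39.7, 32.5 and 35.9 ppm, against 31.9, 24.1 and 32.4 ppm, and did not pass in either fit (0.29 ± 0.27, adjusted p = 0.743 and 0.290).

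Among the GABA-A alpha genes, Gabra3 was at 1.02, 1.13 and 0.612 ppm in Nmnat1 knockdown, against 6.44, 3.68 and 5.04 ppm in scramble (log2 fold change -1.64 ± 0.34, limma adjusted p = 0.125, or 0.0212 without N2_2). Gabra2 was at 9.23, 8.67 and 10.5 ppm, against 13.9, 16.4 and 18.1 ppm (-0.70 ± 0.34, adjusted p = 0.501, or 0.0482 without N2_2). For both genes the groups did not overlap. The median log2 fold change of the 42 tested receptor genes was -0.08, against -0.0034 for all genes. Leaving out any other library gave no receptor gene past the test.

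**Figure D3:**
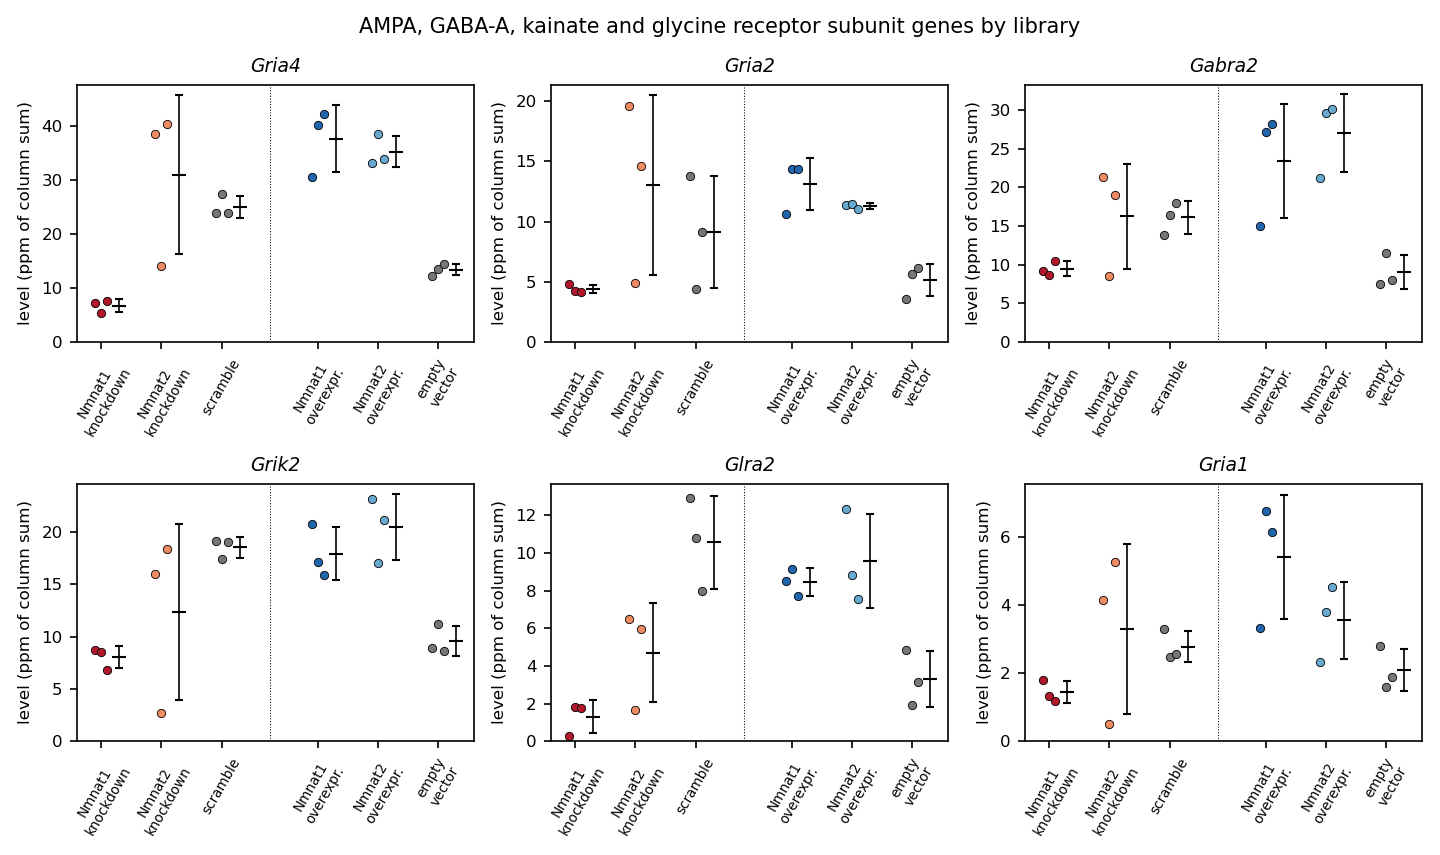
Levels of Gria4, Gria2, Gabra2, Grik2, Glra2 and Gria1 in each library (points, with the mean and SD beside them) in the knockdown table (left of the dotted line) and the overexpression table. Gria4 lies at 5.45 to 7.61 ppm in Nmnat1 knockdown, against 23.9 to 27.5 ppm in scramble, and at 30.7 to 42.3 ppm in both overexpression groups, against 12.3 to 14.4 ppm with the empty vector.

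**Figure D4:**
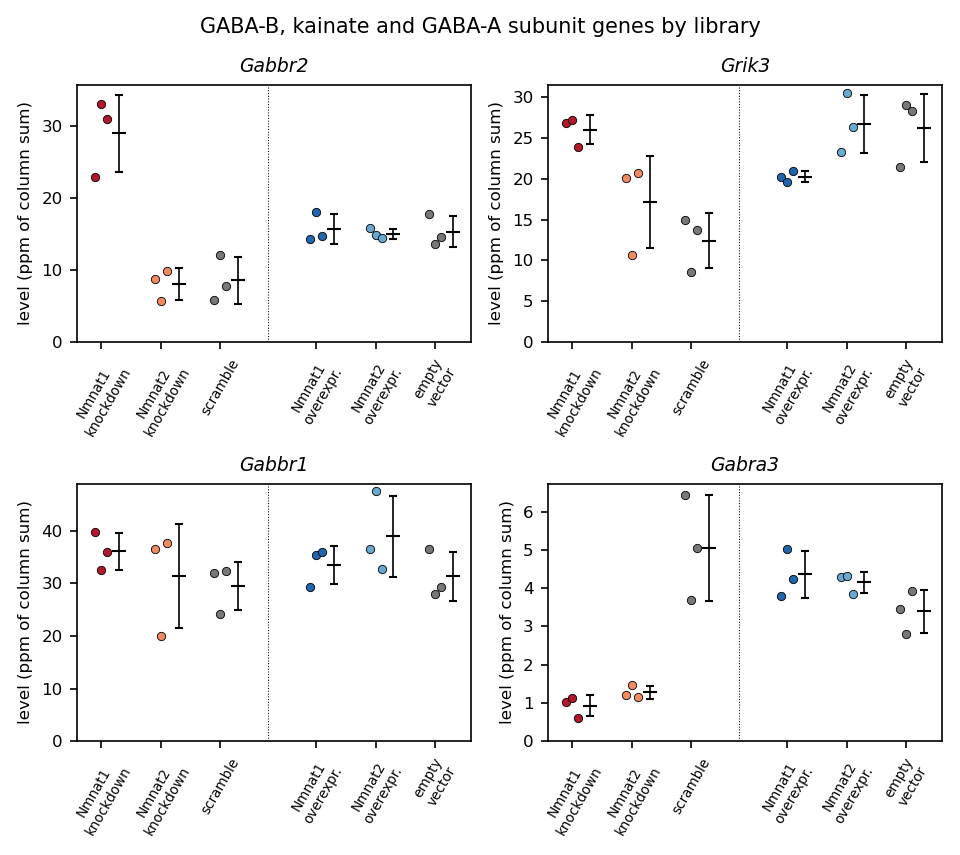
Levels of Gabbr2, Grik3, Gabbr1 and Gabra3 in each library (points, with the mean and SD beside them), in the same layout. Gabbr2 lies at 22.9 to 33.0 ppm in Nmnat1 knockdown, against 5.79 to 12.1 ppm in scramble, and Gabra3 lies at 0.612 to 1.13 ppm against 3.68 to 6.44 ppm.

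Nmnat2 knockdown had the same scramble controls. Of the receptor genes that lay below scramble in every library most were GABA-A subunits (among them Gabra3, Gabra6, Gabrb1, Gabrg1, Gabre and Gabrq), Glra2 and Grm5 were others, and none was an AMPA subunit. GABA-A genes were also a large part of the 42 tested, with 6 alpha, 3 beta, 3 gamma, 2 rho and 3 others. Gabrb1 (0.117 to 0.339 against 0.489 to 1.19 ppm) and Gabrq (0 to 0.489 against 0.678 to 1.79 ppm) were low in both groups. No receptor gene passed the test with all libraries, against 0.436% of all genes, and 6 of 42 had an unadjusted p under 0.05, where 16.8% of all genes did. Without N2_2, 2 passed (among them Gabra3, both lower), where 15.0% of all genes passed, a larger share than 2 of 42. Groups did not overlap for 1 higher and 10 lower receptor genes, where 4.73% and 17.2% of all genes did, and without N2_2 for 9 and 15, where 21.3% and 27.6% did. The median log2 fold change of the tested receptor genes was -0.32, against -0.23 for all genes. The median of all genes moved to -0.04 with median-of-ratios scaling and to -0.0013 with quantile normalization, and that of the receptor genes to -0.17 and 0.08, so that a low median in this comparison depended on the scaling.

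Gabra3 was at 1.21, 1.47 and 1.16 ppm in Nmnat2 knockdown, against 6.44, 3.68 and 5.04 ppm in scramble libraries, a 3.95-fold lower mean. The log2 fold change was -1.39 ± 0.34 (limma adjusted p = 0.105), or -1.45 ± 0.39 without N2_2 (adjusted p = 0.0350). Gabra6 and Gabre were low in both groups, at 0.250 to 0.620 and 0.324 to 0.947 ppm in the knockdown, against 1.63 to 2.42 and 1.75 to 3.78 ppm in scramble, without overlap (-1.12 ± 0.34 and -0.99 ± 0.37, adjusted p = 0.148 and 0.216). The median log2 fold change of the tested alpha genes was below 0 under each of the 3 scalings, at -0.63 with column sums and -0.16 with quantile normalization.

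Gria4 was at 38.6, 14.2 and 40.5 ppm in Nmnat2 knockdown, against 24.0, 27.5 and 23.9 ppm in scramble. N2_2 lay below the scramble libraries and the other 2 above them, and the log2 fold change was 0.16 ± 0.37, or 0.64 ± 0.20 without N2_2 (limma adjusted p = 0.870 and 0.0574). Gabra2 split the same way, at 21.3, 8.57 and 19.0 ppm, against 13.9, 16.4 and 18.1 ppm (-0.07 ± 0.34, adjusted p = 0.943, or 0.31 ± 0.21 without N2_2, adjusted p = 0.359). Grik2 was at 16.0, 2.73 and 18.4 ppm, against 19.1, 17.4 and 19.1 ppm, and Glra2 was at 6.49, 1.68 and 5.97 ppm, against 12.9, 10.8 and 7.96 ppm. Gabbr2 overlapped the control, at 8.77, 5.64 and 9.82 ppm, against 5.79, 12.1 and 7.77 ppm. Whether the effects of the knockdowns differ from each other was not tested.

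The genes that supply the transmitters and hold the receptors in place gave few calls with all libraries and more in the reduced fits, where more of all genes passed as well. With all libraries, 0.144% of all genes passed in Nmnat1 knockdown, 0.436% in Nmnat2 knockdown, 0.121% with Nmnat1 overexpression and 0.550% with Nmnat2 overexpression. Of 22 genes of transmitter synthesis and transport, 21 were tested in each table. In Nmnat2 knockdown 2 were lower past the test, the vesicular glutamate transporter gene Slc17a7 (61.0, 84.0 and 59.7 ppm, against 166, 173 and 189 ppm in scramble, limma adjusted p = 0.0213) and the glutamate transporter gene Slc1a7 (-1.13 ± 0.20, adjusted p = 0.0475). Slc17a7 was also lower in Nmnat2 overexpression (-1.14 ± 0.17, adjusted p = 0.0258), and with all libraries no gene of the list passed with Nmnat1 knockdown or Nmnat1 overexpression. Without N2_2, 1 higher and 4 lower genes of the list passed in Nmnat1 knockdown and 3 higher and 3 lower in Nmnat2 knockdown, where 8.11% and 15.0% of all genes passed. Without the libraries numbered 1, 6 higher and 4 lower passed with Nmnat1 overexpression and 7 higher and 3 lower with Nmnat2 overexpression, where 8.48% and 6.31% of all genes passed. Of 38 scaffold and auxiliary subunit genes, 36 were tested and 1 passed with all libraries, Dlg2 in Nmnat1 overexpression (50.1 ± 8.15 ppm, against 23.7 ± 0.856 ppm with the empty vector, log2 fold change 1.03 ± 0.14, adjusted p = 0.0307), which encodes PSD-93, a postsynaptic scaffold. Of these 36, 5 lower genes passed in Nmnat1 knockdown and 7 higher and 2 lower in Nmnat2 knockdown without N2_2. Among them 8 higher and 1 lower passed with Nmnat1 overexpression and 8 higher with Nmnat2 overexpression once the libraries numbered 1 were left out.

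Marker genes of retinal cell types also differed from the controls. In Nmnat2 knockdown the median log2 fold change was 0.67 over the amacrine markers. It was -0.32 over the tested receptor genes and -0.23 over all genes, and the receptor median was 0.08 with quantile normalization. In bulk samples fewer cells of a type and less RNA per cell cannot be told apart. The summed level of 10 amacrine markers was 239 to 280 ppm in Nmnat1 knockdown and 367 to 953 ppm in Nmnat2 knockdown, against 403 to 438 ppm in scramble. It was 461 to 660 ppm in Nmnat1 overexpression and 392 to 615 ppm in Nmnat2 overexpression, against 289 to 326 ppm with the empty vector. In Nmnat1 knockdown 8 of the 10 markers were below scramble in every library, where 12.0% of all genes were. In Nmnat2 knockdown 3 were above scramble in every library and 0 below, where 4.73% and 17.2% of all genes were. In overexpression 6 (Nmnat1) and 5 (Nmnat2) were above the empty vector in every library, where 7.74% and 8.60% of all genes were. In each, 1 was below, where 10.1% and 7.73% of all genes were. Of the 10, Gad1, Gad2 and Slc6a9 are also in the list of transmitter genes. The summed level of 7 rod markers was 6868 to 6925 ppm in Nmnat1 knockdown and 2603 to 4243 ppm in Nmnat2 knockdown, against 5995 to 6367 ppm in scramble, and 3275 to 5308 and 3176 to 4171 ppm in Nmnat1 and Nmnat2 overexpression, against 6099 to 6370 ppm with the empty vector. The summed level of 7 Mueller glia markers was 2476 to 2605 ppm in Nmnat1 knockdown and 2005 to 3234 ppm in Nmnat2 knockdown, against 4716 to 5402 ppm in scramble, and that of 7 retinal progenitor markers was 124 to 134 and 90.9 to 269 ppm, against 268 to 296 ppm. In Nmnat1 knockdown 6 of the 7 markers of each list were below scramble in every library, where 12.0% of all genes were. The remaining Mueller glia marker, Aqp4, was too low to be tested. The Mueller glia sum was mostly Apoe, at 1869 to 1969 ppm in Nmnat1 knockdown, against 3531 to 4227 ppm in scramble. The Mueller glia and progenitor sums overlapped the empty vector in both overexpression groups. With the libraries numbered 1 left out, 3 (Nmnat1) and 4 (Nmnat2) of 6 Mueller glia markers tested were higher past the test, where 8.48% and 6.31% of all genes passed. The progenitor sum was then 457 to 475 and 454 to 484 ppm, against 404 to 437 ppm with the empty vector. The summed level of 6 cone markers was 2432 to 2600 ppm in Nmnat1 knockdown and 804 to 4119 ppm in Nmnat2 knockdown, against 2240 to 2734 ppm in scramble. It was highest in N2_2, where Gngt2 alone was at 4030 ppm. In that library Opn1sw, Gnat2, Arr3 and Thrb lay below every scramble library, and Pde6h lay within the scramble range. In Nmnat2 knockdown 2 of the 6 fell past the test, where 0.436% of all genes passed. The cone sum was 1081 to 1660 ppm in Nmnat1 overexpression and 1013 to 1130 ppm in Nmnat2 overexpression, against 1397 to 1682 ppm with the empty vector. With overexpression 4 (Nmnat1) and 6 (Nmnat2) of the 6 cone markers were below the empty vector in every library, where 10.1% and 7.73% of all genes were. With Nmnat2, 3 fell past the test, where 0.550% of all genes passed. No marker of these lists was at 0 in every library of any group. In the Nmnat2 knockdown group N2_2 held the lowest amacrine sum, as it did the lowest Gria4. The part of these shifts in the receptor levels was not tested.

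**Figure D5:**
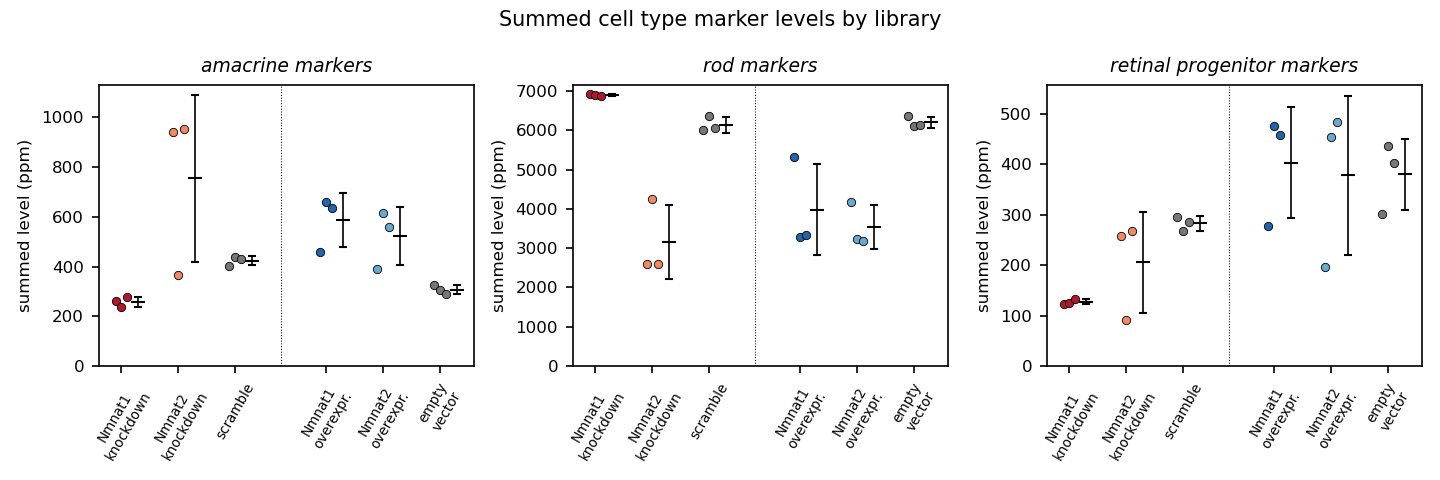
Summed level of amacrine, rod and retinal progenitor markers in each library (points, with the mean and SD beside them), with the knockdown table left of the dotted line. Amacrine sums lie at 239 to 280 ppm in Nmnat1 knockdown, against 403 to 438 ppm in scramble, and at 392 to 660 ppm in both overexpression groups, against 289 to 326 ppm with the empty vector.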

How the data were processed

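RNA of EGFP-positive cells sorted from retinal explants was turned into cDNA with SMART-Seq v4 from 1 ng of total RNA, which keeps no strand, per the labels' protocols. The submitters' processing notes name Salmon 0.11.3, sleuth 0.30.0 and build GRCm38.p6. The authors deposited a length-scaled expression signal that they named TPM, but its columns summed to 14.4 to 29.6 times 1000000, so the unit is unstated. Division by the column sum gave ppm. Low values in genes with 1 transcript lay near whole reads in 71.0% to 85.1% of cases per library (tolerance 0.1, 20% by chance), too few for a count test. By these reads, library depth relative to the median library was 0.778 to 1.355 (knockdown) and 0.822 to 1.14 (overexpression). The last, incomplete line of each table was left out. GENCODE M21, the source of coordinates, held 99.9% of the identifiers. Promoter windows came from RefSeq.

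The knockdown columns show a group but no sample, and are called by their column names. A title in each Nmnat2 group names Nmnat3, and the descriptions, which name Nmnat2, were followed.

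Genes with at least 1 ppm in 3 libraries entered limma 3.58.1 (R 4.3.3) on log2(ppm + 1), with 1 fit of 3 groups per table, a mean-variance trend and two-sided tests. The procedure was also run on simulated data. These had the same spread for every gene and no library that stood apart, so they cannot show how it performs on libraries such as N2_2 or those numbered 1. Each group was compared with the control of its own table. Alternatives covered pseudocount, filter, scaling, fit of 2 groups, left-out libraries and the replicate number as a term. The counts of non-overlapping groups without N2_2 or the libraries numbered 1 were added after seeing the data. Genes were named for a high control level, a small p or an adjusted p under 0.05, and Gabra2 in addition. The receptor genes, the lists and these rules were chosen with earlier results of these data known. Of the receptor genes, 21 share exon sequence with another gene, among them Gria2 and Gria4, and reads there could be split. Some receptor genes entered every fit and count but are not reported here by name. Plots used matplotlib 3.10.9 and Python 3.11.15.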

Additional observations from a re-analysis of the deposited data

How the results depend on the processing

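With all genes counted, the number past the test in Nmnat1 knockdown was 14 with no filter, 113 with quantile normalization, 969 in a fit of only both groups compared, 1802 without N2_2 and 0 to 13 without any other single library, where 32 passed as reported. In Nmnat2 knockdown, 97 as reported, it was 32, 190 (filter of 5 ppm), 173 (quantile), 0 (both groups only) and 3331 (without N2_2), and 0 without any other single library. In Nmnat1 overexpression, 25 as reported, it was 16 with no filter, 54 with a filter of 5 ppm, 9 with median-of-ratios scaling, 42 with quantile normalization, 1756 without the libraries numbered 1 and 3 to 271 with single libraries left out. In Nmnat2 overexpression, 114 as reported, it was 48 with no filter, 181 with a filter of 5 ppm, 71 with median-of-ratios scaling, 1306 without the libraries numbered 1 and 3 to 301 with single libraries left out.

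Receptor genes past the test in Nmnat1 knockdown numbered 2 with quantile normalization, 6 in a fit of only both groups and 8 without N2_2, against 0 as reported, and in Nmnat2 knockdown 2 without N2_2. Without the libraries numbered 1 they numbered 6 with Nmnat1 and 6 with Nmnat2 overexpression, and 0 to 3 in both with single libraries left out. With Nmnat2 overexpression 1 was left, Gria4, with a pseudocount of 5 ppm, no filter, median-of-ratios scaling or quantile normalization. The median log2 fold change of the receptor genes was 0.0054 with quantile normalization in Nmnat1 knockdown, -0.071 with a filter of 5 ppm and 0.084 with quantile normalization in Nmnat2 knockdown, and 0.35 with a filter of 5 ppm in Nmnat1 overexpression. Of 26 fold changes refitted, each of a named gene in a comparison that named it, only that of Gabra2 in Nmnat2 knockdown changed sign, to 0.15 with median-of-ratios scaling, 0.081 with quantile normalization and 0.31 without N2_2, and it ranged from -0.30 to 0.0093 with any other single library left out. A fold change near 0 outside these, that of Gabbr2 in Nmnat2 knockdown (-0.049), was 0.16 without N2_2. The cause of these shifts was not tested, and the filters of 5 ppm and of none change the number of genes tested. Of 437 refits of named genes, 366 gave the reported direction and call, 33 lost the call and 34 gained one. Only the fold changes that passed as reported, 1 with Nmnat1 and 3 with Nmnat2 overexpression, could lose a call. The 366 therefore include many refits with no call to lose.

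In the overexpression table, with the replicate number as a block, 3 receptor genes passed with Nmnat1 (Gria4, Gabra2 and Gria2) and 5 with Nmnat2 (the same with Grik2 and Glra2), and 187 and 269 of all genes did. Same-numbered libraries correlated in their deviations from the group means at 0.027 to 0.461, over 0.1 in 7 of 9 pairs, and 7 of 9 libraries correlated best with their own number. Most same-numbered libraries thus resembled each other. The fits reported above leave the number out because not every pair was over 0.1, and the calls depend on that choice. No paired analysis was possible for the knockdown table because the numbers in its column names could not be tied to labelled samples.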

Other observations

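The summed levels of retinal ganglion and horizontal cell markers were below those of amacrine markers in every library. The 8 ganglion cell markers summed to 12.3 to 22.0 ppm in Nmnat1 knockdown and 10.1 to 23.7 ppm in Nmnat2 knockdown, against 7.88 to 63.8 ppm in scramble libraries, where Thy1 alone was at 45.2 ppm in C1, and to 10.3 to 13.2 ppm in Nmnat1 overexpression and 14.4 to 23.1 ppm in Nmnat2 overexpression, against 8.85 to 11.4 ppm with the empty vector. The 4 horizontal cell markers summed to at most 12.8 ppm in any library.

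Of the 36 scaffold and auxiliary subunit genes tested, Cacng3 had the direction of Gria4 in both overexpression groups and Nmnat1 knockdown, and others did not. Of these 36, 11 lay above and 1 below the empty vector in every Nmnat1 overexpression library, where 7.74% and 10.1% of all genes did. With Nmnat2 overexpression 5 lay above and 2 below (8.60% and 7.73% of all genes). In Nmnat1 knockdown 3 lay above scramble and 10 below (12.8% and 12.0% of all genes). Cacng3, which encodes a transmembrane protein that traffics AMPA receptors, was at 51.9, 91.7 and 105 ppm in Nmnat1 overexpression and at 43.2, 85.8 and 86.8 ppm in Nmnat2 overexpression, against 28.7 ± 4.08 ppm (SD, n = 3) with the empty vector. It was at 17.6, 24.8 and 24.0 ppm in Nmnat1 knockdown, against 48.3 ± 11.3 ppm in scramble. None of the 3 passed the test with all libraries (limma adjusted p = 0.111, 0.124 and 0.430), and leaving out the libraries numbered 1 brought the first and second past it (adjusted p = 1.74e-04 and 3.02e-04). The third passed without N2_2 (adjusted p = 0.00738).

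Gad2, which encodes an enzyme that makes GABA and is one of the amacrine markers, was at 32.2, 85.5 and 81.6 ppm in Nmnat1 overexpression and at 23.4, 52.0 and 44.2 ppm in Nmnat2 overexpression, against 14.1 ± 1.24 ppm with the empty vector. In Nmnat2 knockdown it was at 65.1, 41.0 and 67.7 ppm, against 23.4 ± 3.54 ppm in scramble. None of these passed the test with all libraries (limma adjusted p = 0.0720, 0.165 and 0.0621). The other amacrine markers among the transmitter genes did not share this. Gad1 overlapped the control in all these groups, at 2.06 to 5.54 ppm (Nmnat1 overexpression), 2.36 to 3.24 ppm (Nmnat2 overexpression) and 4.08 to 4.59 ppm (Nmnat2 knockdown). It was at 3.04 to 4.91 ppm with the empty vector and 2.75 to 6.19 ppm in scramble. Slc6a9 lay below the empty vector in every overexpression library.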
